A study of Mus musculus with 6 samples.

Results

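The Wnt set described here comprised 44 genes of the 19938 genes measured on a single-symbol probe set: 19 Wnt ligands, 10 Frizzled receptors, the co-receptor genes Lrp5 and Lrp6, 9 secreted antagonists (the Dkk and Sfrp families and Wif1) and 4 target or feedback genes (Axin2, Sp5, Nkd1 and Lgr5). Members were picked by gene symbol, with earlier results of these data known, and a member with several single-symbol probe sets was read on the brightest of them. RNA came from HM1 cells, an embryonic stem (ES) cell line of the mouse, and was hybridised to 1 Affymetrix array per sample. The 3 control samples carried the empty plasmid pCAGIP.puro, and the 3 overexpression samples carried the same plasmid with mouse Prmt6, a nuclear arginine methyltransferase. Both groups were cultured with LIF (1000 U/ml) and 15% serum and spent 3 days in puromycin at 1 ug/ml, so each sample is a selected population of transfected cells and not a clone. Whether replicates were separate cultures is not stated in the labels, so every p-value rests on sample-to-sample spread that may be only technical.

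Wnt proteins are secreted, lipid-modified ligands. In the canonical route a Wnt binds a Frizzled receptor together with Lrp5 or Lrp6, the complex that destroys beta-catenin is switched off, and beta-catenin enters the nucleus to act with TCF/LEF factors on target genes such as Axin2 and Sp5. Dkk1 blocks the co-receptors, while Sfrp proteins and Wif1 bind the ligands. In mouse ES cells canonical Wnt activity favours self-renewal, and in the embryo Wnt signals drive formation of the primitive streak.

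Values are RMA signals on a log2 scale (robust multi-array average, which adjusts the arrays to each other), so a difference of 1 is a 2-fold change. The medians of the arrays still differed, at 5.60 to 5.62 in control and 5.54 to 5.59 in overexpression. The array gives no detection calls here, and a low signal may be background. Arrays of the same group correlated at 0.986 to 0.992 over all probe sets and arrays of different groups at 0.980 to 0.987. Prmt6 itself read 6.84, 6.58 and 7.12 in control and 7.32, 7.40 and 7.33 in overexpression, a rise of 0.50 ± 0.13 (log2, SE, n = 3 per group, limma with Benjamini-Hochberg adjusted p = 0.0406). This call ended without any 1 array other than control replicate 3 (adjusted p from 0.0788 to 0.119, and 0.0108 without that array). All 10 ES cell markers were measured. Their mean lay at 10.35 to 10.39 in control arrays and 10.28 to 10.32 in overexpression arrays. Of these markers 3 (Nanog, Sox2 and Tdgf1) fell by 0.29 to 0.35, where 3.25% of all genes fell. The other 7 did not pass. Among them, Pou5f1 (0.19) and Dppa5a (0.11) had all overexpression arrays above all controls.

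The comparison addressed the effect of added Prmt6 on expression in ES cells. Among the Wnt set, the ligands Wnt7b, Wnt7a, Wnt9a and Wnt11, the receptors Fzd2 and Fzd5, the antagonist Dkk1 and the target gene Sp5 rose with the Prmt6 plasmid, and the ligand Wnt8a and the antagonist Sfrp2 fell. These 10 calls (limma, adjusted p under 0.05 over all genes) came from a total of 44 members, or 22.7%, where 10.3% of all genes tested were called. Rises made up 18.2% of members against 7.05% of all genes, and falls 4.55% against 3.25%. With arrays centred on their medians, 11 members rose and 1 fell, beside 1838 rises and 447 falls over all genes. Before centring, 1405 of all genes rose and 647 fell. The median change of the members was 0.10 on the log2 scale beside 0.00 for all genes. With 1 array left out it ran from 0.064 (without control replicate 3) to 0.11 (without control replicate 2). In bulk samples fewer cells of a type and less RNA per cell cannot be told apart.

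**Figure D1:**
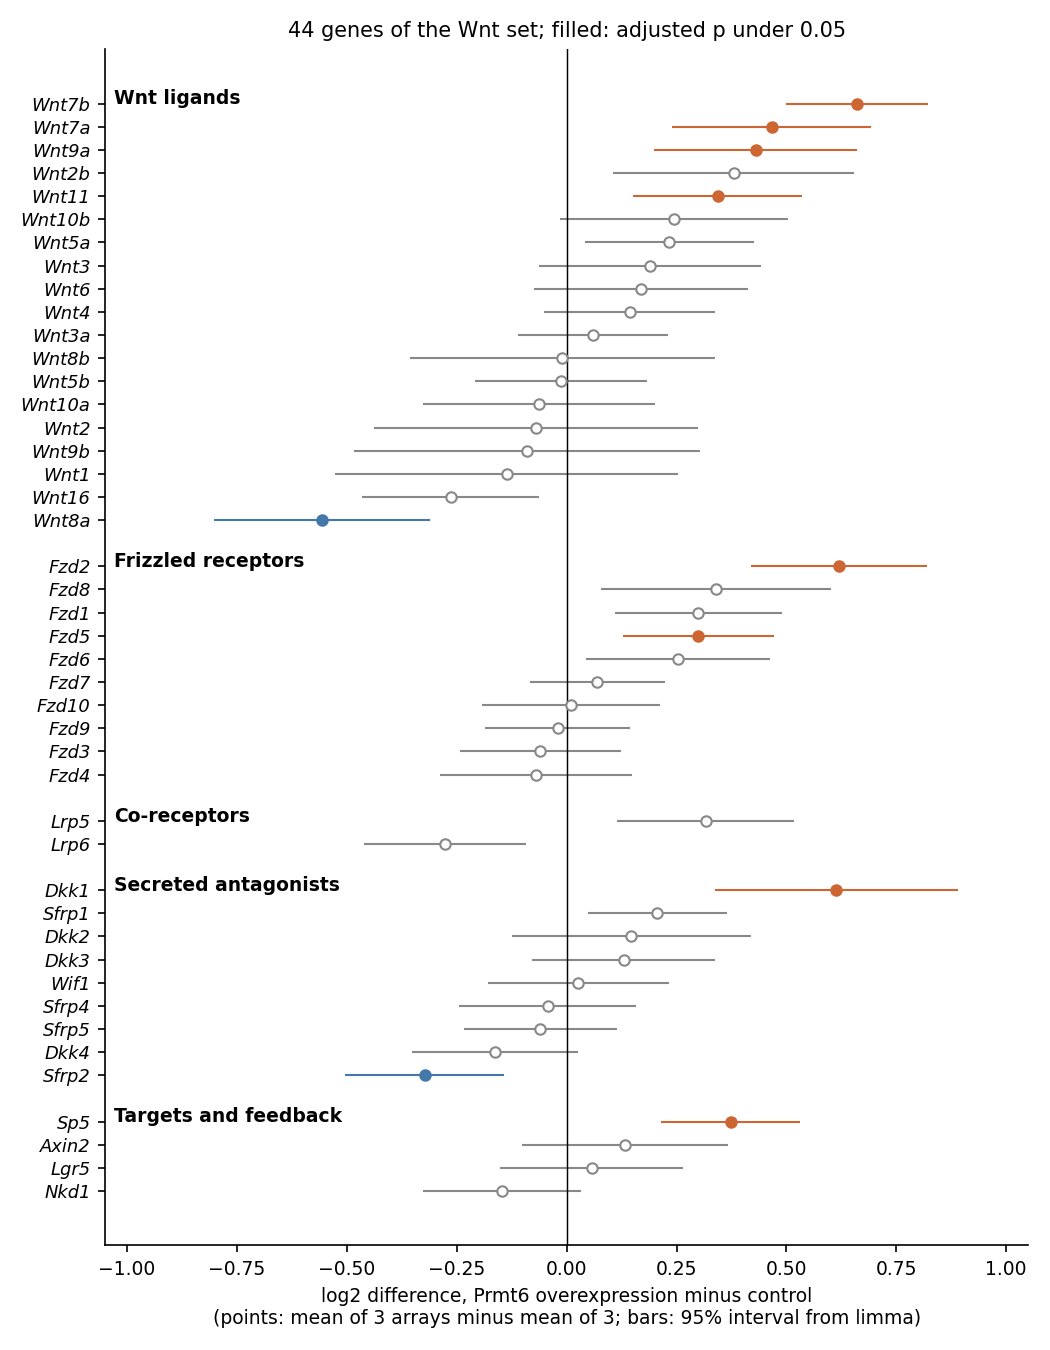
Log2 difference between Prmt6 overexpression and control for the 44 genes of the Wnt set, grouped by role; points are differences of group means (3 arrays each), bars are 95% intervals from limma, and filled points have adjusted p under 0.05. The 10 filled points run from -0.56 (Wnt8a) to 0.66 (Wnt7b), and most members lie close to 0.

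In 19 members the 3 overexpression arrays lay wholly above (15) or wholly below (4) the 3 control arrays. That is 43.2% of members, against 29.7% of all genes (17% above and 12.7% below). The 9 of these that did not pass were Wnt2b, Wnt5a, Wnt3, Fzd8, Fzd1, Lrp5 and Sfrp1 (overexpression above) and Lrp6 and Wnt16 (overexpression below). The calls varied with the arrays used. All 6 fits that left out 1 array kept Wnt7b and Fzd2. None of them kept Wnt11 or Fzd5. Rises among members numbered 3, 6 and 3 without control replicates 1, 2 and 3 in turn. They numbered 6, 5 and 5 without overexpression replicates 1, 2 and 3 in turn. Falls among members numbered 1, 1 and 0 in the fits without a control array, and 3, 1 and 1 without an overexpression array. Over all genes, in the same order, 862, 978 and 898 rose without a control array. Without an overexpression array 1232, 1036 and 1163 rose. All-gene falls numbered 280, 321 and 297 without a control array, and 763, 328 and 492 without an overexpression array. Without control replicate 3, the share of members called was close to that of all genes.

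**Figure D2:**
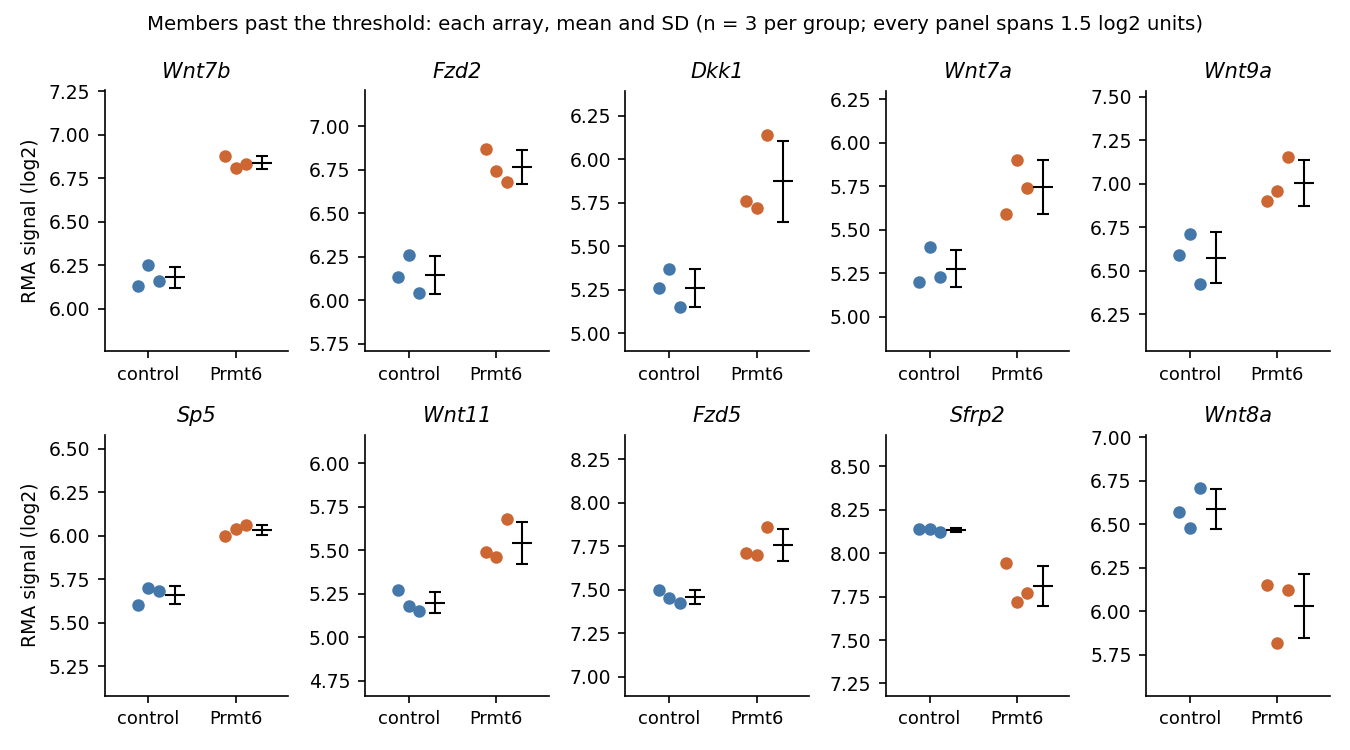
RMA signal (log2) of each array for the 10 members past the threshold, with the mean and SD of the 3 arrays per group beside the points; every panel spans the same 1.5 log2 units. In no panel do the control and overexpression arrays overlap, and the gap is widest for Wnt7b (0.56) and narrowest for Sfrp2 (0.18).

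Of the 19 Wnt ligands, 4 rose, 1 fell and 14 did not pass. Wnt7b, a ligand needed in placenta, lung and kidney development, read 6.13, 6.25 and 6.16 in control and 6.88, 6.81 and 6.83 in overexpression. The arrays of each group lay close together and the groups were 0.56 apart. Its rise of 0.66 ± 0.071 (log2, SE, n = 3 per group, 1.58-fold, adjusted p = 0.000629) was the largest of any member and held without any 1 array (adjusted p from 0.00250 to 0.00532). Its close paralog Wnt7a, known for limb patterning, read 5.20, 5.40 and 5.23 in control and 5.59, 5.90 and 5.74 in overexpression. All overexpression arrays of Wnt7a were above all controls, with wider scatter than for Wnt7b. The rise was 0.47 ± 0.099 (1.38-fold, adjusted p = 0.0204), and the call ended without control replicate 1 (0.0848), control replicate 3 (0.0781) or overexpression replicate 2 (0.0668).

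Wnt9a, a ligand of developing joints, read 6.59, 6.71 and 6.42 in control and 6.90, 6.96 and 7.15 in overexpression. Its rise was 0.43 ± 0.10 (adjusted p = 0.0315). The call was lost when control replicate 1 (0.0922), control replicate 3 (0.112), overexpression replicate 2 (0.0758) or overexpression replicate 3 (0.0746) was left out. Wnt11, which acts mainly through beta-catenin-independent routes in cell movement, read 5.27, 5.18 and 5.15 in control and 5.49, 5.46 and 5.68 in overexpression. The groups did not overlap for either ligand, and the gap was 0.19 in both. The rise of Wnt11 was 0.34 ± 0.084 (adjusted p = 0.0363) and its call ended without any 1 array (0.0531 to 0.131).

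Wnt8a, a ligand of the posterior epiblast and primitive streak, moved the other way. It read 6.57, 6.48 and 6.71 in control and 6.15, 5.82 and 6.12 in overexpression. All overexpression arrays were below all controls, overexpression replicate 2 the furthest. The fall was -0.56 ± 0.11 (log2, SE, n = 3 per group, 1.47-fold lower, adjusted p = 0.0131), and the call ended without control replicate 3 (0.0540).

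The other ligands ran from -0.26 (Wnt16) to 0.38 (Wnt2b). Wnt2b read 5.35, 5.35 and 4.96 in control and 5.48, 5.71 and 5.61 in overexpression and did not pass (adjusted p = 0.0872). It passed with centred arrays (0.0470) and with a trended, robust variance prior (0.0481). Wnt3, which the embryo needs to form a primitive streak, differed by 0.19 ± 0.11 (adjusted p = 0.343), and its low control replicate 3 (5.45, beside 5.81 and 5.86) set most of that difference. Without that array the difference was 0.062. Wnt3a, the ligand most used to activate the canonical route in culture, differed by 0.06 (95% interval -0.11 to 0.23). Wnt5a, the typical ligand of the non-canonical route, differed by 0.23 ± 0.084 (adjusted p = 0.126), and its paralog Wnt5b by -0.01. Wnt9b was the most scattered member within a group, at 5.11, 5.44 and 5.90 in overexpression against 5.57, 5.63 and 5.52 in control. Wnt8b and Wnt1 were among 5 members whose mean lay under the 30th percentile of all gene means (with Dkk2, Wif1 and Lgr5), and none of these passed.

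Several Wnt genes sit next to each other in the genome, and 4 such pairs of neighbouring protein-coding genes were found in the RefSeq gene table of GRCm38.p6. In none of the pairs did both genes pass. Wnt9a (0.43) lies next to Wnt3a (0.06), Wnt9b (-0.09) next to Wnt3 (0.19), Wnt6 (0.17) next to Wnt10a (-0.06), and Wnt10b (0.24) next to Wnt1 (-0.14). Whether the changes of 2 neighbours differed was not tested.

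Wnt4, a ligand of kidney and female gonad development, was the only member with 2 single-symbol probe sets, and they did not read alike. The probe set used above read 6.49, 6.35 and 6.43 in control and 6.61, 6.66 and 6.43 in overexpression, a difference of 0.14 ± 0.085 (adjusted p = 0.356). The other probe set read 5.66, 5.74 and 5.63 in control and 6.53, 6.71 and 6.54 in overexpression, so that its groups lay far apart while those of the first overlapped. Fitted with all 35556 probe sets, it differed by 0.92 ± 0.080 (1.89-fold, limma adjusted p = 0.00237), a larger change than that of any member on the probe sets used above. The within-array difference between both probe sets (other minus used) went from -0.83, -0.61 and -0.80 in control to -0.08, 0.05 and 0.11 in overexpression. The shift of 0.77 had a two-sided exact permutation p of 0.1, the smallest that 3 arrays against 3 allow. The platform annotation ties the used probe set to 1 accession and the other to 7. With the mean of both probe sets, Wnt4 differed by 0.53 and passed (adjusted p = 0.00314).

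**Figure D3:**
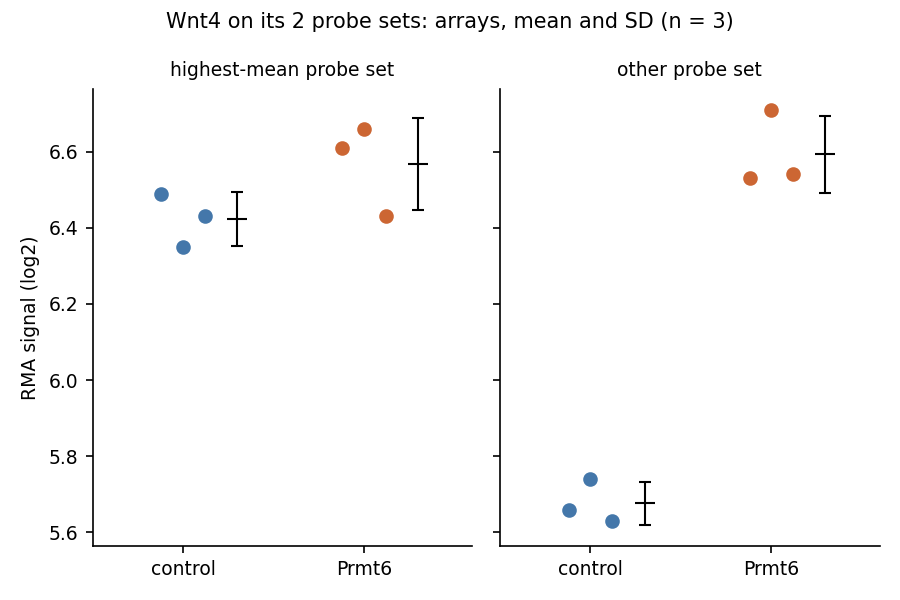
RMA signal (log2) of Wnt4 in each array on its 2 probe sets, with the mean and SD of 3 arrays per group beside the points. On the highest-mean probe set the groups overlap (6.42 ± 0.070 in control, 6.57 ± 0.12 in overexpression), and on the other they do not (5.68 ± 0.057 and 6.59 ± 0.10).

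Of the 10 Frizzled receptors, 2 rose and 8 did not pass. Fzd2 read 6.13, 6.26 and 6.04 in control and 6.87, 6.74 and 6.68 in overexpression. The groups were 0.42 apart, and the rise of 0.62 ± 0.087 (log2, SE, n = 3 per group, 1.54-fold, adjusted p = 0.00279) held without any 1 array (adjusted p from 0.00565 to 0.0165). Fzd5, a receptor needed for yolk sac vessels, read 7.50, 7.45 and 7.42 in control and 7.71, 7.70 and 7.86 in overexpression. Its rise of 0.30 ± 0.075 (adjusted p = 0.0406) ended without any 1 array (0.0508 to 0.145) and under quantile normalization (0.0576). Fzd1 differed by the same amount, 0.30 ± 0.083, and missed the threshold (adjusted p = 0.0570). It read 5.89, 5.65 and 5.69 in control and 6.07, 6.02 and 6.04 in overexpression, with no overlap. It passed without control replicate 1 (0.0444), with centred arrays (0.0351), with quantile normalization (0.0324) and with the trended, robust prior (0.0446). Fzd8 differed by 0.34 ± 0.11 (adjusted p = 0.106) and passed without overexpression replicate 2 (0.0394). Fzd6, which acts in planar polarity, differed by 0.25 ± 0.092 (adjusted p = 0.129). Fzd7, a Frizzled known for its role in ES cells, differed by 0.07 (95% interval -0.08 to 0.22). Fzd10, Fzd9, Fzd3 and Fzd4 lay between 0.01 and -0.07.

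The co-receptor genes had opposite signs. Lrp5 read 7.15, 7.12 and 7.13 in control and 7.62, 7.34 and 7.39 in overexpression, a difference of 0.32 ± 0.088 (adjusted p = 0.0579). Lrp6 read 8.01, 7.99 and 8.00 in control and 7.86, 7.64 and 7.67 in overexpression, a difference of -0.28 ± 0.080 (adjusted p = 0.0673). In both genes the control arrays spanned at most 0.03, the groups did not overlap, and overexpression replicate 1 was the highest of its group. Neither passed with all arrays. Both passed with the trended, robust prior (0.0132 for Lrp5 and 0.0139 for Lrp6) and with quantile normalization (0.0368 and 0.0253). Lrp5 also passed with centred arrays (0.0380), and Lrp6 without overexpression replicate 1 (0.0222) and with array weights (0.0183).

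Of the 9 secreted antagonists, Dkk1 rose, Sfrp2 fell and 7 did not pass. Dkk1, which binds the co-receptors and is needed to form the head, read 5.26, 5.37 and 5.15 in control and 5.76, 5.72 and 6.14 in overexpression. Every overexpression array was above every control, and replicate 3 was the highest. The rise was 0.61 ± 0.12 (log2, SE, n = 3 per group, 1.53-fold, adjusted p = 0.0144), and the call ended without control replicate 1 (0.0533) or 3 (0.0577). Sfrp2, a secreted protein with a Frizzled-like domain that binds ligands, read 8.14, 8.14 and 8.12 in control and 7.94, 7.72 and 7.77 in overexpression. The controls were nearly identical and all overexpression arrays were lower. The fall was -0.32 ± 0.079 (adjusted p = 0.0369). It ended with arrays centred on their medians (0.0711) and without any 1 array except overexpression replicate 1 (0.0836 to 0.122, and 0.0160 without that array). Sfrp1 read 6.46, 6.43 and 6.35 in control and 6.65, 6.61 and 6.60 in overexpression, with no overlap, and did not pass (0.21 ± 0.069, adjusted p = 0.104). Dkk2, Dkk3 and Dkk4 differed by 0.15, 0.13 and -0.16, Sfrp4 and Sfrp5 by -0.04 and -0.06, and Wif1 by 0.03, and none of these passed.

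Among the 4 target and feedback genes, Sp5 rose and the others did not pass. Sp5, a zinc-finger factor switched on by beta-catenin, read 5.60, 5.70 and 5.68 in control and 6.00, 6.04 and 6.06 in overexpression. The groups were 0.30 apart with little scatter in either. The rise was 0.37 ± 0.069 (1.30-fold, adjusted p = 0.0106), and the call ended without control replicate 1 (0.0594). Axin2, a scaffold of the complex that destroys beta-catenin and a general feedback target, read 6.46, 6.59 and 6.20 in control and 6.57, 6.56 and 6.52 in overexpression. Its groups overlapped, and the difference of 0.13 had a 95% interval of -0.10 to 0.37 (adjusted p = 0.487). With 1 array left out this difference ran from 0.025 to 0.22, and it was smallest without control replicate 3. Nkd1, a feedback inhibitor that binds Dishevelled, differed by -0.15 ± 0.079 (adjusted p = 0.303), and Lgr5, a receptor for R-spondins, by 0.06 ± 0.091 (adjusted p = 0.769).

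Since Sp5 and Dkk1 are known targets of beta-catenin with TCF/LEF factors, promoters of the members were searched for 4 spellings of the TCF/LEF motif, namely for CTTTGAA, for CTTTGAT, for CTTTGTA and for CTTTGTT, on both strands. Sequences were RefSeq windows (GRCm38.p6) of 300 bases, from 250 before to 50 after each start. Windows were found for 29 of the 44 members and for 7 of the 10 called ones (Wnt7b, Fzd2 and Wnt8a were not among them). The 3 called members with a match, Dkk1 (chr19:30549447-30549746, minus strand), Sp5 (chr2:70474673-70474972, plus strand) and Wnt11 (chr7:98834862-98835161, plus strand), are shown because these genes rose and their windows hold the letters. They read 5′ to 3′ in the direction of the gene with the matches in capitals.
Dkk1: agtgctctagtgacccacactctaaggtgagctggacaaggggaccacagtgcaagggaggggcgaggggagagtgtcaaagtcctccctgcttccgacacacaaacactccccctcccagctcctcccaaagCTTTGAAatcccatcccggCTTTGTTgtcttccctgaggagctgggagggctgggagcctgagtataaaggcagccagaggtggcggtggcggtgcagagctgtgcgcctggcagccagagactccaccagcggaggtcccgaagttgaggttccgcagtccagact
Sp5: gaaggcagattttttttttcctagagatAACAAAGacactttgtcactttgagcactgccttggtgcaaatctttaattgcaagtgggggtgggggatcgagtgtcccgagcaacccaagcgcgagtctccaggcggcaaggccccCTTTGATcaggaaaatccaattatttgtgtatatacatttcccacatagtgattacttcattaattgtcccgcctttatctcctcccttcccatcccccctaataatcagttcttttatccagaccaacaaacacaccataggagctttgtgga
Wnt11: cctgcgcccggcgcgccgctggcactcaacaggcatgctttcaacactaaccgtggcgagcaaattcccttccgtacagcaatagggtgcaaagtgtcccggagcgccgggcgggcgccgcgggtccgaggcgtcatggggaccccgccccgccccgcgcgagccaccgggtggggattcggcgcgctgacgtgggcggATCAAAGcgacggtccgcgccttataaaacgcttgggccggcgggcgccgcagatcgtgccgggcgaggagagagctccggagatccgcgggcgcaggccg

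The Dkk1 window holds CTTTGAA beginning 117 bases before the start and CTTTGTT beginning 98 bases before it, both on the strand of the gene. The Sp5 window holds CTTTGAT 104 bases before the start and, on the opposite strand, CTTTGTT (read here as AACAAAG) 222 bases before it. The Wnt11 window holds CTTTGAT on the opposite strand, 51 bases before the start, and a second Wnt11 window in the table has no match. Wnt7a, Wnt9a, Fzd5 and Sfrp2 had no match. Among members that were not called, 3 of 22 genes had one (Fzd7, Wnt3 and Wnt5b). In all, 6 of 29 member genes (20.7%) had a match in at least 1 window, beside 16.5% of the 15614 genes tested on the array that had a window. Counted by window, 18.8% of member windows had a match, beside 14.2% of windows of genes tested on the array and 16.9% of all 32851 windows of this length. Member windows were richer in G and C (median 66.5%) than windows of genes tested on the array (57.3%), so these shares are not like for like. Dkk1 and Sp5, the known targets that prompted the search, are also among the 6 genes with a match. The member shares are therefore no independent test. A match is a description of the letters and does not show binding.

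Other genes of the pathway were read from 4 lists that hold none of the members. Together they had 79 measured genes, of which 8 rose and 1 fell, so that 11.4% were called, close to the 10.3% of all genes. In the list of secretion, extracellular and membrane modulators, 3 of 20 rose and 17 did not pass. The largest change was in Igfbp4, which binds insulin-like growth factors and has been reported to inhibit Wnt signalling. It read 6.12, 5.78 and 6.04 in control and 8.52, 8.20 and 8.14 in overexpression, a rise of 2.31 ± 0.13 (4.95-fold, adjusted p = 1.20e-05). Wls, the carrier that takes Wnt proteins from the Golgi to the cell surface, read 5.97, 5.97 and 6.16 in control and 7.73, 7.70 and 7.64 in overexpression. Its rise of 1.66 ± 0.080 (3.15-fold, adjusted p = 7.14e-06) was larger than that of any ligand. Gpc4, a glypican on the cell surface, rose by 0.74 ± 0.074 (adjusted p = 0.000417). Porcn, which attaches the lipid to Wnt proteins, differed by -0.16 (adjusted p = 0.210), and the R-spondins Rspo1 to Rspo4 lay between -0.25 and 0.04 without passing.

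Of 30 genes of the intracellular beta-catenin route, 1 rose and 29 did not pass. The one was Csnk1e, a casein kinase that phosphorylates Dishevelled (0.53 ± 0.071, adjusted p = 0.00231). Ctnnb1, the gene of beta-catenin, differed by 0.02 (adjusted p = 0.879), Axin1 by 0.06 (0.756), Gsk3b by 0.14 (0.426) and Tcf7l1, a repressor of Wnt targets in ES cells, by -0.01 (0.953). Apc was at -0.26 (0.0512). Of 11 measured targets of the route, 1 rose and 10 did not pass. Myc rose by 0.43 ± 0.076 (adjusted p = 0.00898), while Ccnd1 and Lef1 were at -0.25 and -0.26 (0.0919 and 0.0540) and Cdx1, Cdx2 and Cdx4 at 0.14, 0.26 and 0.30, without passing. The targets Tcf7 and brachyury were not on a single-symbol probe set and were not analysed here.

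Of 18 genes of the planar polarity and other non-canonical routes, 3 rose, 1 fell and 14 did not pass. Ryk, a receptor for Wnt ligands, rose by 0.58 ± 0.075 (adjusted p = 0.00175). Ror1, a receptor kinase for Wnt5a, read 6.66, 6.46 and 6.47 in control and 5.95, 5.98 and 6.10 in overexpression, a fall of -0.52 ± 0.085 (adjusted p = 0.00591), while Ror2 was at 0.11 (0.472). The formin Daam1 rose by 0.42 ± 0.10 (adjusted p = 0.0337), a call that ended without any 1 array (0.0520 to 0.109). The GTPase Rac1 rose by 0.36 ± 0.074 (adjusted p = 0.0171), a call lost when control replicate 1 (0.0634), control replicate 3 (0.0814) or overexpression replicate 2 (0.0516) was left out. The polarity genes Vangl1, Vangl2, Celsr1, Celsr2 and Celsr3 lay between -0.25 and 0.28 without passing.

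**Figure D4:**
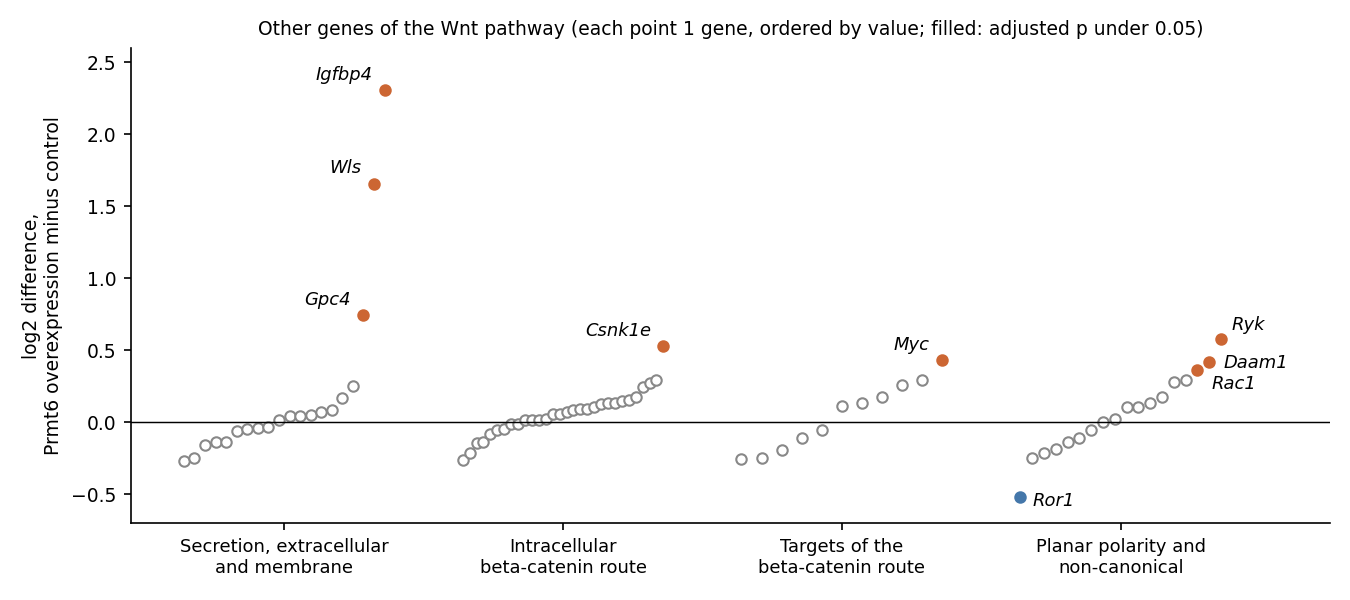
Log2 difference between Prmt6 overexpression and control (n = 3 arrays each) for 79 other genes of the Wnt pathway in 4 lists; each point is 1 gene, ordered by value within its list, and filled points have adjusted p under 0.05. Igfbp4 (2.31) and Wls (1.66) stand above the rest, and Ror1 (-0.52) is the 1 filled point below 0.

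Markers of other cell types moved in the same arrays as the members. Of 12 measured fibroblast markers, 6 rose and 6 did not pass, and their mean lay at 5.13 to 5.22 in control arrays and 5.46 to 5.60 in overexpression arrays. Col1a1 rose by 1.34, whereas Lum and Prrx1 were at 0.06 and -0.10 without passing. Of 8 primitive endoderm markers 4 rose (means 5.38 to 5.42 and 5.65 to 5.74). The other 4 did not pass, with Gata4 at 0.26, Foxa2 at 0.05, Hnf4a at -0.02 and Sox7 at -0.02. Of 6 trophoblast markers 2 rose, Hand1 (0.98) and Tead4 (0.67), with means of 5.97 to 6.05 and 6.30 to 6.34. The trophoblast markers Elf5 and Tfap2c were at -0.25 and -0.22 without passing. Of 5 primitive streak markers 2 rose, Mixl1 and Eomes (5.58 to 5.60 and 5.77 to 5.94), whereas Gsc was at -0.15 without passing. Of 6 neural markers 2 rose, Nes (0.57) and Tubb3 (0.53), 1 fell, Neurod1 (-1.08), and 3 did not pass. Over all genes, 7.05% rose and 3.25% fell. Log2 array signals have no zero, so absence of a marker could not be read, and the part of other cell types in the changes of the Wnt set was not tested.

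**Figure D5:**
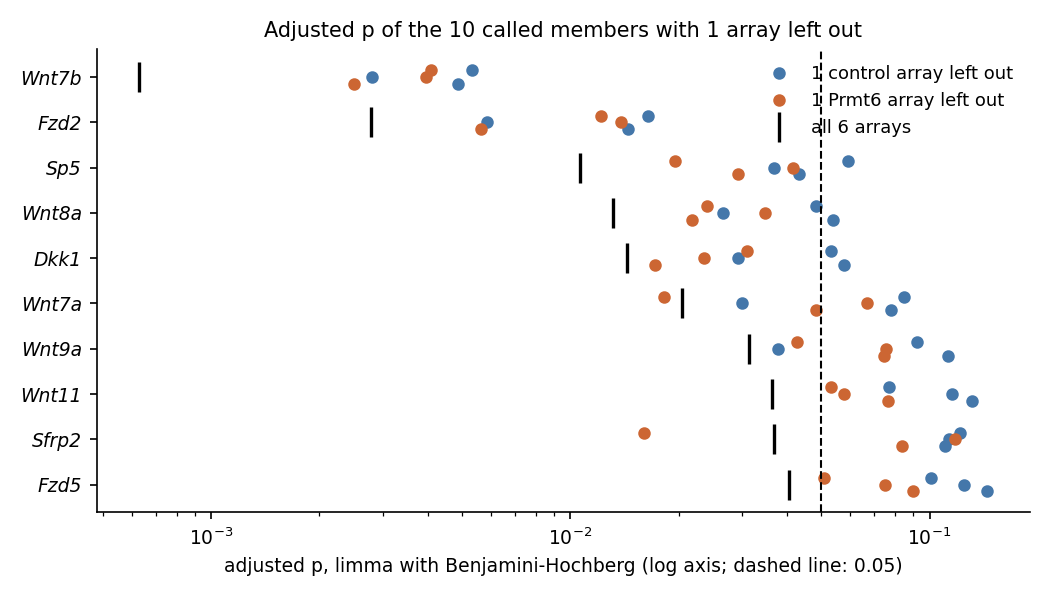
Adjusted p (limma, Benjamini-Hochberg, log axis) of the 10 called members with all 6 arrays (black bars) and with each array left out in turn (blue, a control array; orange, an overexpression array). Wnt7b and Fzd2 stay left of the dashed line at 0.05 in all 6 fits, and Wnt11 and Fzd5 lie right of it in all 6.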

How the data were processed

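The deposited values are log2 signals that the authors made with RMA, per the submitters' processing notes. Which software and settings were used is not stated in the sources at hand. There were 35556 probe sets on 6 arrays, and precision is limited by that number of arrays. Names came from the platform annotation, and all 44 members matched the RefSeq gene table (GRCm38.p6) by gene identifier. Probe sets with several symbols or none were left out, leaving 19938 genes, each on its highest-mean probe set.

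The groups were compared in R 4.3.3 with limma 3.58.1 (lmFit with eBayes, two-sided, no covariates, no filter on dim genes), with p-values adjusted over all genes by Benjamini-Hochberg and a threshold of 0.05. Plots used matplotlib 3.10.9 under Python 3.11.15. Changes are overexpression minus control with SE. The fit was tested on simulated data made from these genes. With 3 arrays per group, a gene that did not pass may still differ.

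The members, gene lists and markers were chosen with earlier results of these data known. Genes named by a fixed rule are Prmt6, every member past the threshold, and up to 4 passing genes of each other list with the largest change. Other members and list genes are given by their values. Some of these also have SE, adjusted p and the settings in which they passed. Those singled out were chosen after their values were seen. The alternatives comprised a fit with a replicate block, fits that left out 1 array, filters on dim genes, median centring, quantile normalization, other probe set rules, another variance prior, array weights and stricter thresholds.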

Additional observations from a re-analysis of the deposited data

Results flagged for a closer look

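The probe set of Wnt4 that the main comparison did not use carried a signal above its control level. It differed by 0.92 on the log2 scale between overexpression and control (n = 3 per group, limma adjusted p = 0.00237 over all probe sets), and all 3 overexpression arrays were above all 3 controls.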

How the results depend on the processing

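The signs of all 10 called members were the same under every alternative in which they were fitted. Most alternatives could not have changed them. The groups of these members did not overlap, so leaving out 1 array keeps the sign. The replicate block, the variance prior, the filters and the stricter thresholds leave the difference as it is. Of the 34 members not called, 12 changed sign under at least 1 alternative, all of them at 0.14 or less in size with all arrays. The counts of calls moved more. Leaving out 1 array gave 3 to 6 rises and 0 to 3 falls among members, 6 to 7 rises and 1 to 2 falls among other pathway genes, and 862 to 1232 rises and 280 to 763 falls over all genes. With the replicate block there were 5 rises and 1 fall among members, beside 1018 rises and 383 falls over all genes. In that fit the calls of Wnt9a (adjusted p = 0.0771, limma), Wnt11 (0.0886), Fzd5 (0.108), Sfrp2 (0.0832), Rac1 (0.0624) and Prmt6 (0.0615) ended. The numbers were not taken as pairs because the labels do not say that a number pairs the replicates. Same-numbered arrays did not deviate together (correlations of deviations -0.019, -0.016 and -0.12). Arrays with different numbers had correlations from -0.10 to 0.11. Deviations from a group mean depend on each other, so these correlations cannot settle the pairing. Fitting every probe set on its own gave 4 rises (Wnt7b, Fzd2, Sp5 and Wnt4) and 0 falls among members (Wnt8a at adjusted p = 0.0516 and Sfrp2 at 0.0841, limma), where 5.05% of probe sets were called. An adjusted p under 0.01 left 2 rises and 0 falls among members, and 765 rises and 219 falls over all genes. At that threshold the share of members called was close to that of all genes. Asking also for a 1.5-fold change left 3 rises and 0 falls among members, 3 and 0 among other pathway genes, and 532 and 134 over all genes. Falls among members numbered 1 with arrays centred on medians, a setting that took the share of rises among all calls from 68.5% to 80.4%. Without genes under the 30th percentile, 13 of 75 other pathway genes rose and 6 fell, beside 1832 rises and 990 falls among 13961 genes. Without genes under the median, 13 of 56 rose and 6 fell, beside 1937 and 1079 among 9971 genes. The trended and robust prior gave 13 rises and 5 falls among other pathway genes, beside 2061 and 1115 over all genes. Array weights gave 9 and 6, beside 1706 and 1098. Quantile normalization gave 10 and 4, beside 1513 and 810. Members that gained a call were Fzd1, Lrp5, Lrp6 and Wnt2b without genes under the 30th percentile and with the trended and robust prior, Fzd1, Lrp5 and Wnt2b with centred arrays, Fzd1, Lrp5 and Lrp6 with quantile normalization, Lrp6 with array weights, and Fzd1, Fzd6, Lrp5, Lrp6 and Sfrp1 without genes under the median, where Dkk1, Sp5, Wnt11 and Wnt7a were no longer among the genes fitted. The causes were not tested.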
